A study of Mus musculus with 6 samples.

Results

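Semaphorins, plexins, neuropilins, ephrins, Eph receptors, netrins and Unc5 receptors are the ligand and receptor families first described as steering growing axons. They were picked here by gene name, and 58 of the 20645 rows in the expression table matched. The matches comprised 20 semaphorins, 2 neuropilins, 9 plexins, 8 ephrins, 11 Eph receptors, 5 netrins and 3 Unc5 receptors. Of these, 48 had enough reads to be tested and 10 did not.

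Semaphorins are secreted or membrane-bound ligands that signal through plexins, and most secreted class 3 members need a neuropilin as the binding partner of the plexin. Ephrins are ligands held at the cell surface that bind Eph receptor tyrosine kinases on a neighbouring cell, and both sides can signal. Netrins are laminin-related proteins that bind Unc5 receptors among others. Outside the nervous system these families act in vessel growth, cell sorting at tissue borders and lung branching.

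RNA sequencing was done on mesenchymal stromal cells (MSC) from mouse lung, in 2 populations with 3 libraries each. The mG libraries came from cells carrying membrane-bound GFP, and the mT libraries came from cells carrying membrane-bound TdTomato. All 6 libraries shared the C57BL/6 strain, the Tbx4-rtTA, TetO-Cre and mT-mG alleles, and doxycycline given between embryonic day 6.5 and postnatal day 1. Lungs were dissociated with dispase, collagenase and DNase into MSC medium before flow cytometry, and unstranded libraries were made from total RNA. In this system Tbx4 regulatory sequence drives a doxycycline-dependent activator, Cre then switches the reporter, and GFP marks a cell whose own history or ancestry included that activity. TdTomato marks any cell that did not recombine, whatever the reason, so mT is defined by absence of the switch. The age at collection was not given in the labels. The labels number the libraries 1 to 3 in each population without saying that these were separate animals, and the p-values therefore describe spread among these libraries only, which may be technical.

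Libraries held 18349874 to 19185862 counts in mG and 16853561 to 19429138 counts in mT. Pairwise correlations of log2 CPM were 0.903 to 0.976 within a population and 0.881 to 0.934 between populations. All 10 mesenchymal markers examined were tested, and their summed CPM was 17485, 8449 and 23160 in mG and 19463, 15811 and 19521 in mT. Col1a1 and Col1a2 made up most of these sums. Ly6a averaged 140 CPM in mG and 520 CPM in mT, Thy1 236 and 506 CPM, and Eng 199 and 289 CPM. These genes were lower in mG without overlap, the other mesenchymal markers overlapped, and 0 of the 10 were called by edgeR. The 7 of 8 leukocyte markers that were listed summed to 12.4, 18.4 and 16.7 CPM in mG and to 13.4, 17.7 and 20.1 CPM in mT. Of these, 4 were tested and 0 called by edgeR, all 4 with an unadjusted p under 0.05: Csf1r averaged 7.72 CPM in mG and 1.62 CPM in mT (adjusted p = 0.0727), Lyz2 3.99 CPM in mG and 13.2 CPM in mT (adjusted p = 0.234), and Cd14 and Cd68 were higher in mG without overlap. Ptprc had at most 6 counts in any library. Of 7 epithelial markers only Krt19 was listed. Endothelial markers were low but uneven: the 8 of 10 that were listed summed to 7.36, 2.95 and 3.89 CPM in mG and to 53.6, 0.539 and 12.5 CPM in mT, with Tie1 and Cldn5 not listed. The mG replicate 2 library stood apart in cartilage genes, whose summed CPM was 9.43, 3614 and 18.3 in mG and 73.7, 21.9 and 76.1 in mT. In that library the glial marker S100b had 108 CPM and the mural marker Rgs5 70 CPM, against at most 8.43 and 1.57 CPM elsewhere. The mG replicate 3 library stood apart in mesothelial genes, of which 2 of 4 were listed and 0 called by edgeR. These summed to 7.53, 4.31 and 58.1 CPM in mG and to 5.72, 10.8 and 5.15 CPM in mT, with Msln at 54.1 CPM in mG replicate 3. Mural genes summed to 12868, 2007 and 5154 CPM in mG and to 6196, 8927 and 6129 CPM in mT. Each of the 5 proliferation genes averaged higher in mG, and 0 were called. Their sums overlapped, at 833, 298 and 192 CPM in mG and 231, 188 and 58.1 CPM in mT. The part of these marker differences in the guidance genes was not tested.

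One guidance gene, Sema7a, passed the test between mG and mT, and it was lower in mG. That is 1 of 48 tested guidance genes (2.08%), beside 124 of all 13560 genes tested (0.914%) by edgeR's quasi-likelihood test at an adjusted p under 0.05. Of all genes, 0.715% passed as lower and 0.199% as higher in mG. At an unadjusted p under 0.05 there were 16 guidance genes, 9 higher and 7 lower in mG (33.3%), against 14.6% of all genes (7.7% higher and 6.88% lower). The 3 mG values and the 3 mT values did not overlap for 17 guidance genes (35.4%), 10 higher and 7 lower in mG, against 20.8% of all genes (9.97% higher and 10.8% lower). DESeq2 called 12 of the 53 guidance genes it tested, against 5.96% of all genes, and edgeR's likelihood-ratio test called 8 of 48, against 5.65%. In the authors' deposited table, a total of 8 of 58 guidance genes had a false discovery rate under 0.05, 4 higher and 4 lower in mG, against 6.05% of its rows. The authors' comparison carries a likelihood-ratio score, so its false discovery rates are not directly comparable with the quasi-likelihood adjusted p. The median log2 fold change of the tested guidance genes was 0.30, beside 0.02 over all genes, and 64.6% of them were fitted above 0, beside 53.1% of all genes. Without both replicate 2 libraries that median was 0.03, and without mG replicate 3 it was 0.09.

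**Figure D1:**
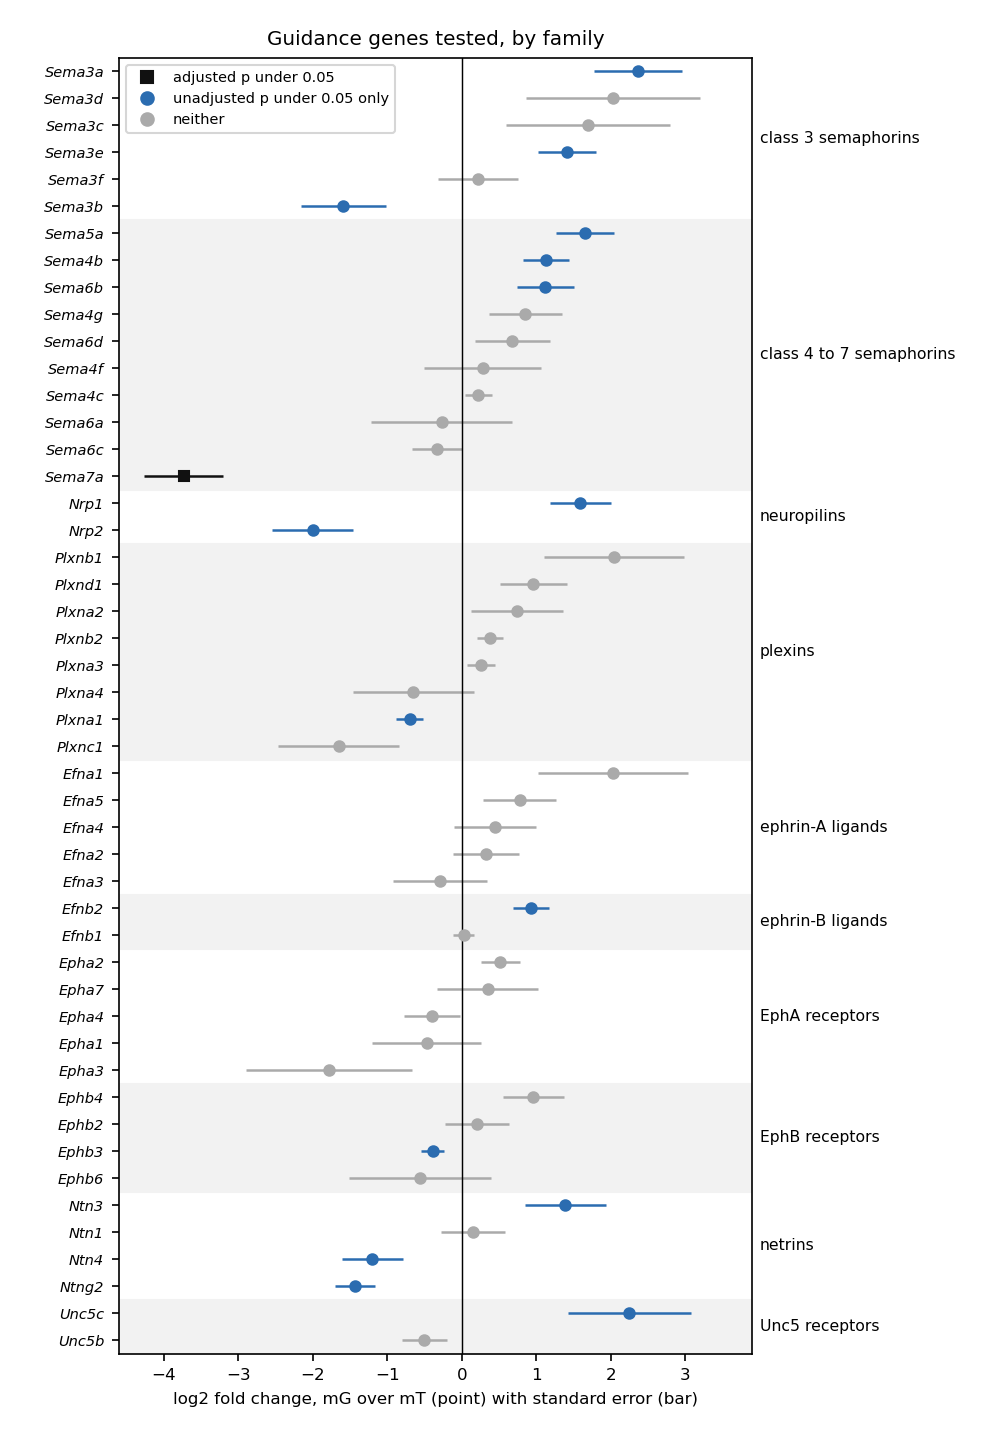
Log2 fold change, mG over mT, of the 48 tested guidance genes grouped by family, with the standard error as a bar. Sema7a, at -3.73, is the one gene past the adjusted threshold; the coloured circles passed only the unadjusted one and lie on both sides of 0.

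Sema7a encodes semaphorin 7A, a semaphorin held in the membrane by a lipid anchor that binds plexin C1 and integrin beta-1. Its level was 3.65, 3.70 and 2.30 CPM in mG, against 25.4, 76.3 and 26.6 CPM in mT. Every mG library lay below every mT library, and mT replicate 2 was the highest of the 6. The means were 3.22 ± 0.796 CPM in mG and 42.8 ± 29.1 CPM in mT (SD, n = 3 each), and expression fell 13.2-fold in mG (log2 fold change -3.73 ± 0.53 SE, edgeR adjusted p = 0.04). In bulk RNA, fewer cells that express a gene and less of its RNA per cell cannot be told apart. The adjusted p was close to the threshold. With the replicate number as a block it was 0.0453, and with no filter 0.0236. DESeq2 gave an adjusted p of 3.67e-11 and the likelihood-ratio test 8.79e-09. Leaving out 1 library gave adjusted p = 0.0474 without mT replicate 2 and 0.0489 without mG replicate 2. The call was lost without mT replicate 1 (0.0666), mT replicate 3 (0.0999), mG replicate 1 (0.0975) or mG replicate 3 (0.157). It was also lost without both replicate 2 libraries (0.0523) and by limma-voom (0.109). The fits that lost the call had log2 fold changes between -3.99 and -3.14. The authors' deposited table, whose comparison carries a likelihood-ratio score, gave Sema7a a false discovery rate of 3.4e-08.

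The plexin that binds semaphorin 7A, Plxnc1, had 0.436, 1.55 and 0.236 CPM in mG, against 1.82, 4.13 and 1.14 CPM in mT. It was lower in mG in all 3 same-numbered pairs, the ranges overlapped, and the difference did not pass (log2 fold change -1.65 ± 0.81 SE, adjusted p = 0.419). Plxnc1 was chosen for description after its values were seen. The other receptor gene, Itgb1, averaged 4164 ± 1794 CPM in mG and 3442 ± 85.4 CPM in mT (SD, n = 3 each; adjusted p = 0.836).

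The neuropilins Nrp1 and Nrp2 stood on opposite sides of 0. Nrp1, the co-receptor for semaphorin 3A and for vascular endothelial growth factor, had 159, 130 and 347 CPM in mG, against 79.3, 50.4 and 82.0 CPM in mT. All mG libraries were above all mT libraries, with a log2 fold change of 1.59 ± 0.41 SE that did not pass the adjusted threshold (adjusted p = 0.156). Nrp2, the co-receptor for semaphorins 3F and 3C, had 129, 25.4 and 70.8 CPM in mG, against 276, 277 and 343 CPM in mT. Here every mG library was below every mT library, and the log2 fold change was -2.0 ± 0.54 SE (adjusted p = 0.173). DESeq2 and the likelihood-ratio test called both genes, and the authors' deposited table gave false discovery rates of 0.0271 for Nrp1 and 0.0126 for Nrp2.

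Read counts of Nrp1 relative to Nrp2 were 1.24, 5.13 and 4.90 in mG libraries, against 0.287, 0.182 and 0.239 in mT libraries. Nrp1 thus had more reads than Nrp2 in each mG library and fewer in each mT library. The ratio was chosen after the values were seen, it is not corrected for gene length, and it carries no test. Per length, with the authors' RPKM, Nrp1 averaged 15.7 in mG and 5.24 in mT, while Nrp2 averaged 1.80 in mG and 7.19 in mT. With CPM per kilobase of merged exons instead, Nrp1 stood at 21.7 in mG and 7.21 in mT, and Nrp2 at 6.33 in mG and 25.2 in mT.

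The promoters of Sema7a, both neuropilins and Sema3a are shown because these genes carry the differences described most fully. Each is the 250 bases before the RefSeq start (GRCm38.p6), on the plus strand: chr9:57939862-57940111 for Sema7a, chr8:128358823-128359072 for Nrp1, chr1:62703067-62703316 for Nrp2 and chr5:13396534-13396783 for Sema3a. Capitals mark GGGCGG, the core of a GC box, on either strand, with overlapping matches allowed.
Sema7a: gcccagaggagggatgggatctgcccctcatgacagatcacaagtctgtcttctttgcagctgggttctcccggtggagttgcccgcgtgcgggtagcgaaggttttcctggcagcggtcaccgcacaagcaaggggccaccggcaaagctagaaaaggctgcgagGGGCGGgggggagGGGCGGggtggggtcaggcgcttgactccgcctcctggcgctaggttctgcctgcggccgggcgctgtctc
Nrp1: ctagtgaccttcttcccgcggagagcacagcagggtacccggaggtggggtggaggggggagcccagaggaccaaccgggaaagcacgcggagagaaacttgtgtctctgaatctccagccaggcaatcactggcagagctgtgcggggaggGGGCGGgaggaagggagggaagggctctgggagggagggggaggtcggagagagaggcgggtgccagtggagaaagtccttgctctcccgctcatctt
Nrp2: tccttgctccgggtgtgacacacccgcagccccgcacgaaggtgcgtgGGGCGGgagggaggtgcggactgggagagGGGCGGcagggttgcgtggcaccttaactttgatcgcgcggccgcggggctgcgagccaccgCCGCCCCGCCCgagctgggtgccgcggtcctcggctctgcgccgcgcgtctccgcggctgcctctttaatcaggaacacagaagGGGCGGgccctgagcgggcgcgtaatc
Sema3a: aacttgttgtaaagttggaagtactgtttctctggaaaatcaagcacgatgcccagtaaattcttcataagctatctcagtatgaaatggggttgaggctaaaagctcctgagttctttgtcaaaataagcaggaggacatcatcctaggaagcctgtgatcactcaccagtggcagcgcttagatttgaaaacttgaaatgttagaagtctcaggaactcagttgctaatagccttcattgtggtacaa
Nrp2 held 5 matches at 72.4% GC, Sema7a 2 at 66.4% GC, Nrp1 1 at 64.4% GC, and Sema3a 0 at 40.8% GC, beside a median of 52.4% GC over all promoters. Of 65 promoter entries for 51 guidance genes, 48 held GGGCGG (73.8%), beside 32.7% of all 32851 promoters. TATAAA was in 1 of the 65 (1.54%), beside 12.4% of all, and CCAAT was in 17 (26.2%), beside 33.8%. The background of all promoters was not matched for GC content or expression, so these contrasts are not shown to be particular to guidance genes. The T-box half-site AGGTGTGA was in 0 of the 65, beside 1.12% of all promoters; this says only that these letters are not in these windows.

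Among the class 3 semaphorins, the secreted ligands, 0 of the 6 tested genes passed by edgeR's quasi-likelihood test. At an unadjusted p under 0.05 there were 2 higher and 1 lower in mG. DESeq2 and the likelihood-ratio test each called 2, Sema3a and Sema3e, and limma-voom called 0. Sema3a, the ligand of neuropilin 1 and plexin A, had 175, 44.3 and 237 CPM in mG, against 38.0, 27.1 and 23.4 CPM in mT. All mG values were above all mT values, although mG replicate 2 lay close to the highest mT library (log2 fold change 2.36 ± 0.59 SE, adjusted p = 0.147). Without mG replicate 2 the adjusted p of Sema3a was 0.0163, without both replicate 2 libraries it was 0.0523, and leaving out any other single library gave 0.214 to 0.466. With all libraries, DESeq2 gave Sema3a an adjusted p of 0.00105 and the likelihood-ratio test 0.00312. Its false discovery rate in the authors' deposited table was 0.0035.

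Sema3e, which signals through plexin D1 without a neuropilin, had 37.1, 65.3 and 50.5 CPM in mG, against 18.0, 10.7 and 29.0 CPM in mT, again without overlap (log2 fold change 1.41 ± 0.39 SE, adjusted p = 0.18). Its receptor gene Plxnd1, chosen for this reason after its values were seen, had 25.5, 42.3 and 18.8 CPM in mG and 23.6, 8.62 and 12.3 CPM in mT (adjusted p = 0.395), and the ranges overlapped. Sema3b ran the other way, with 3.71, 11 and 14.5 CPM in mG and 16.6, 45.7 and 25.7 CPM in mT. No mG library of Sema3b reached the lowest mT library, and the difference did not pass (log2 fold change -1.59 ± 0.57 SE, adjusted p = 0.28).

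Sema3c had 242, 94.7 and 558 CPM in mG, against 198, 7.72 and 68.9 CPM in mT. The spread within each population was wide and the ranges overlapped, while mG was higher in 3 of 3 same-numbered pairs (log2 fold change 1.70 ± 1.10 SE, adjusted p = 0.552). Leaving out 1 library moved the log2 fold change of Sema3c between 0.88 (without mG replicate 3) and 2.96 (without mT replicate 1). Sema3d showed the same layout, with 152, 22.5 and 201 CPM in mG and 60.7, 2.10 and 28.9 CPM in mT (log2 fold change 2.03 ± 1.17 SE, adjusted p = 0.494). Sema3f, a ligand of neuropilin 2, had 58.0, 63.1 and 196 CPM in mG and 53.8, 112 and 107 CPM in mT (log2 fold change 0.22 ± 0.54 SE, adjusted p = 0.918). Sema3d, Sema3a, Sema3e and Sema3c, the 4 class 3 genes with the largest positive fold changes, lie in 1 stretch of chromosome 5, with 5.19 Mb between the outer starts. Of 52 RefSeq genes in it, 7 were tested, and the 3 that are not semaphorins had log2 fold changes of 1.65 (Speer3), -0.75 (Cacna2d1) and 2.31 (Hgf). Sema3d and the neighbouring genes were chosen for description after their values were seen.

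**Figure D2:**
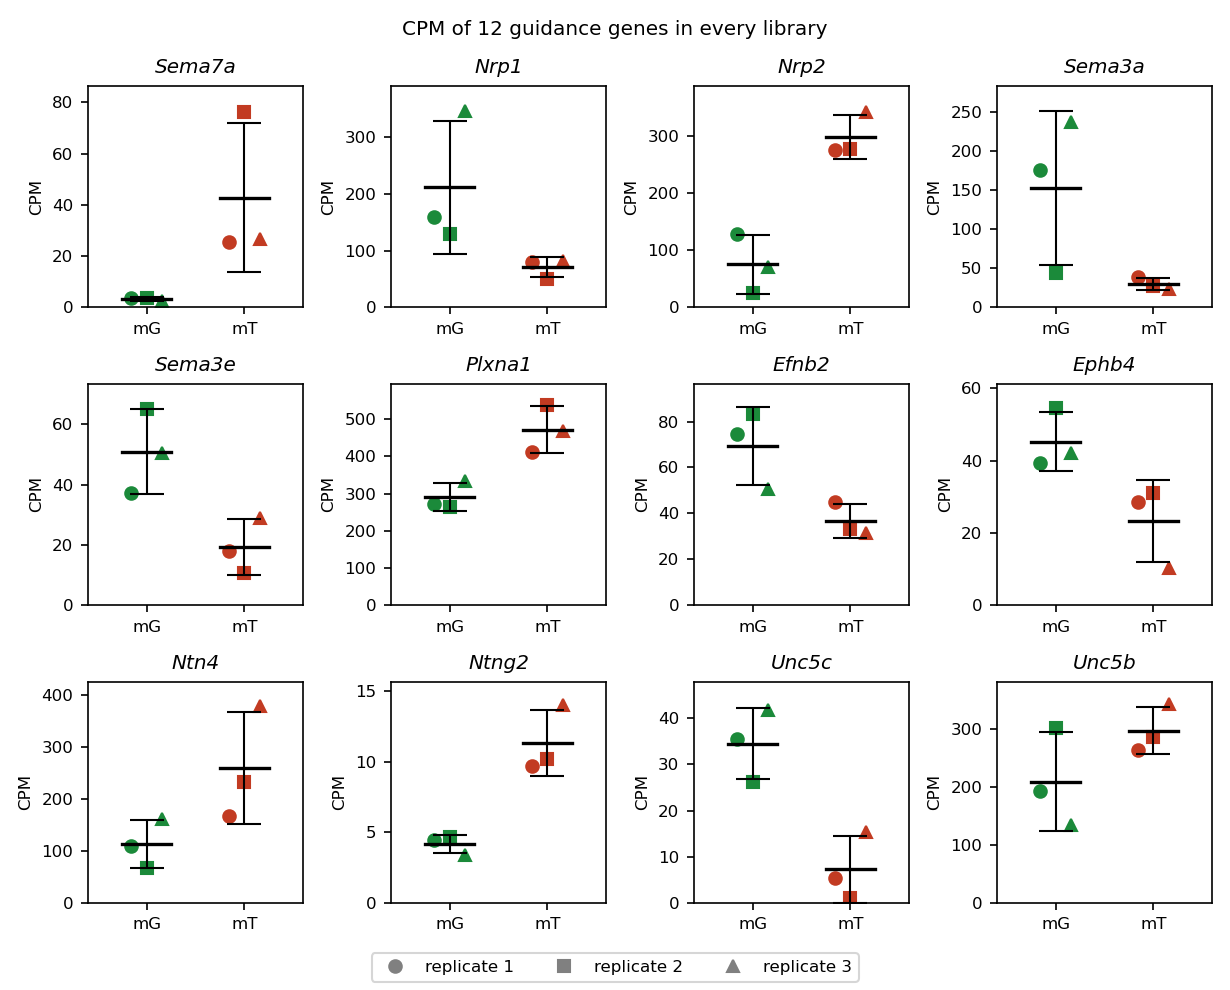
CPM of 12 guidance genes in each library, mG left and mT right, with the mean and SD as bars (n = 3 each) and a symbol for each replicate number. Sema7a, Nrp2, Plxna1, Ntn4 and Ntng2 lie lower in mG without overlap, Unc5b overlaps, and the other 6 lie higher in mG without overlap.

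The membrane-bound semaphorins of classes 4 to 7 had 10 tested genes, with Sema7a the one call by edgeR's quasi-likelihood test. At an unadjusted p under 0.05 there were 3 higher and 1 lower in mG. DESeq2 called 3, the likelihood-ratio test 2 and limma-voom 0. Sema5a, a transmembrane semaphorin with thrombospondin repeats, had 8.23, 4.87 and 4.83 CPM in mG, against 2.58, 1.44 and 1.62 CPM in mT (log2 fold change 1.66 ± 0.39 SE, adjusted p = 0.133). Sema4b, a transmembrane class 4 member, had 19.3, 14 and 13.3 CPM in mG, against 8.71, 4.49 and 8.03 CPM in mT (log2 fold change 1.13 ± 0.31 SE, adjusted p = 0.18). In both genes the lowest mG library was above the highest mT library, and neither passed the adjusted threshold by edgeR's quasi-likelihood test. DESeq2 called both, with adjusted p = 0.00342 for Sema5a and 0.028 for Sema4b. The likelihood-ratio test called Sema5a (0.0138) but not Sema4b (0.0624). In the authors' deposited table the false discovery rates were 0.0099 for Sema5a and 0.102 for Sema4b. Sema6b, a ligand of plexin A receptors and chosen after its values were seen, also lay higher without overlap, at 2.57 ± 0.653 CPM in mG and 1.17 ± 0.261 CPM in mT (SD, n = 3 each; adjusted p = 0.255). The other 6, Sema4c, Sema4f, Sema4g, Sema6a, Sema6c and Sema6d, had log2 fold changes between -0.33 and 0.85.

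Plexins, the semaphorin receptors, gave 0 calls among 8 tested by edgeR's quasi-likelihood test, 1 at an unadjusted p under 0.05, 1 by DESeq2, and 0 by the likelihood-ratio test and limma-voom. Plxna1, which pairs with neuropilins to carry class 3 signals, had 273, 264 and 335 CPM in mG, against 412, 537 and 467 CPM in mT. All mG libraries were lower than all mT libraries, with a small spread in each (log2 fold change -0.70 ± 0.18 SE, adjusted p = 0.156). Plxnb2, a receptor of class 4 semaphorins, was among the most abundant guidance genes in both populations, at 549 ± 38.3 CPM in mG and 422 ± 62.3 CPM in mT (SD, n = 3 each). Its groups did not overlap and the difference did not pass (log2 fold change 0.38 ± 0.18 SE, adjusted p = 0.394).

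Plxnb1, the receptor of semaphorin 4D, had 10.5, 70.0 and 7.07 CPM in mG and 11.4, 3.71 and 6.11 CPM in mT. The mG replicate 2 library held 64.3% of its summed CPM, the other mG libraries lay within the mT range, and the log2 fold change of 2.04 ± 0.94 SE (adjusted p = 0.385) was -0.01 without both replicate 2 libraries. Plxna2, Plxna3 and Plxna4 had log2 fold changes of 0.74, 0.26 and -0.65, and that of Plxna2 ranged between -0.25 and 1.16 on leaving out 1 library. Exons of Plxna1 and Plxnb1 overlap those of another gene on the opposite strand in GENCODE M21, and without strand such reads cannot be told apart. Overlap on the opposite strand was found for 13 of the 58 guidance genes, Efna4 and Plxna4 among them. Exons of Plxnc1, Ntng2 and Nrp1, among others, overlap another gene on the same strand.

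Ephrin-A ligands gave 0 calls among 5 tested by edgeR's quasi-likelihood test, and also 0 at an unadjusted p under 0.05 and by DESeq2, the likelihood-ratio test and limma-voom. Efna1, a ligand of EphA2, had 1.53, 10.2 and 0.707 CPM in mG and 1.01, 1.44 and 0.599 CPM in mT (adjusted p = 0.424). Efna5, a ligand of several EphA receptors, had 8.51, 29.5 and 12.6 CPM in mG and 7.90, 8.14 and 13.4 CPM in mT (adjusted p = 0.537). Efna4, another lipid-anchored ligand, had 2.34, 11.2 and 5.01 CPM in mG and 4.05, 4.73 and 4.85 CPM in mT (adjusted p = 0.8). In each of the 3 genes mG replicate 2 was the highest library, and the other mG libraries lay on either side of the mT values or among them. The same library was highest for 4 of the 5 ephrin-A genes and for 14 of the 48 tested guidance genes. It was not alone in this, as mG replicate 3 was highest for 13 of the 48.

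The ephrin-B ligands differed from each other. Efnb2, the transmembrane ligand of EphB4 that marks arteries, had 74.5, 83.4 and 50.6 CPM in mG, against 45.1, 33.2 and 31.3 CPM in mT. The mG libraries were all above the mT libraries (log2 fold change 0.93 ± 0.24 SE, adjusted p = 0.152), and DESeq2 and the likelihood-ratio test called the gene. Efnb1 was at 103 ± 12 CPM in mG and 101 ± 10.2 CPM in mT (SD, n = 3 each), and its log2 fold change was 0.03 ± 0.14 SE (adjusted p = 0.969).

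EphB receptors gave 0 calls among 4 by edgeR's quasi-likelihood test, 1 at an unadjusted p under 0.05, and 0 by DESeq2, the likelihood-ratio test and limma-voom. Ephb4, the receptor of ephrin-B2 and a vein marker, had 39.2, 54.5 and 42.1 CPM in mG, against 28.6, 31.1 and 10.2 CPM in mT. The ranges were apart, with mT replicate 3 the lowest (log2 fold change 0.96 ± 0.41 SE, adjusted p = 0.349); its exons overlap Zan on the opposite strand. Ephb3, another ephrin-B receptor, had 43.7, 38.2 and 41.7 CPM in mG, against 50.1, 63.7 and 48.8 CPM in mT, lower without overlap and by a small amount (log2 fold change -0.39 ± 0.15 SE, adjusted p = 0.294). Ephb2 had a log2 fold change of 0.21 ± 0.43 SE (adjusted p = 0.897), and Ephb6, which lacks kinase activity, had -0.56 ± 0.95 SE (adjusted p = 0.871). Within mT, Efnb2 was highest in replicate 1, the library with the highest endothelial marker sum, and Ephb4 was highest in replicate 2. Every mG library had more Efnb2 than mT replicate 1, with endothelial sums of 7.36, 2.95 and 3.89 CPM against 53.6 CPM there. The part of these markers in the values was not tested.

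EphA receptors gave 0 calls among 5 by edgeR's quasi-likelihood test, and 0 at an unadjusted p under 0.05 and by DESeq2, the likelihood-ratio test and limma-voom. Epha3, a receptor of ephrin-A5, had 28.8, 0.562 and 12.3 CPM in mG and 42.2, 21.1 and 79.9 CPM in mT. It was lower in mG in 3 of 3 same-numbered pairs, with overlapping ranges (log2 fold change -1.78 ± 1.11 SE, adjusted p = 0.534). Epha2, a receptor of ephrin-A1, averaged 42.5 ± 9.79 CPM in mG and 29.7 ± 7.34 CPM in mT (SD, n = 3 each; adjusted p = 0.424). Epha4, which binds both ephrin classes, had 47.5, 18.9 and 33.2 CPM in mG and 40.1, 31.6 and 59.6 CPM in mT (adjusted p = 0.725).

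**Figure D3:**
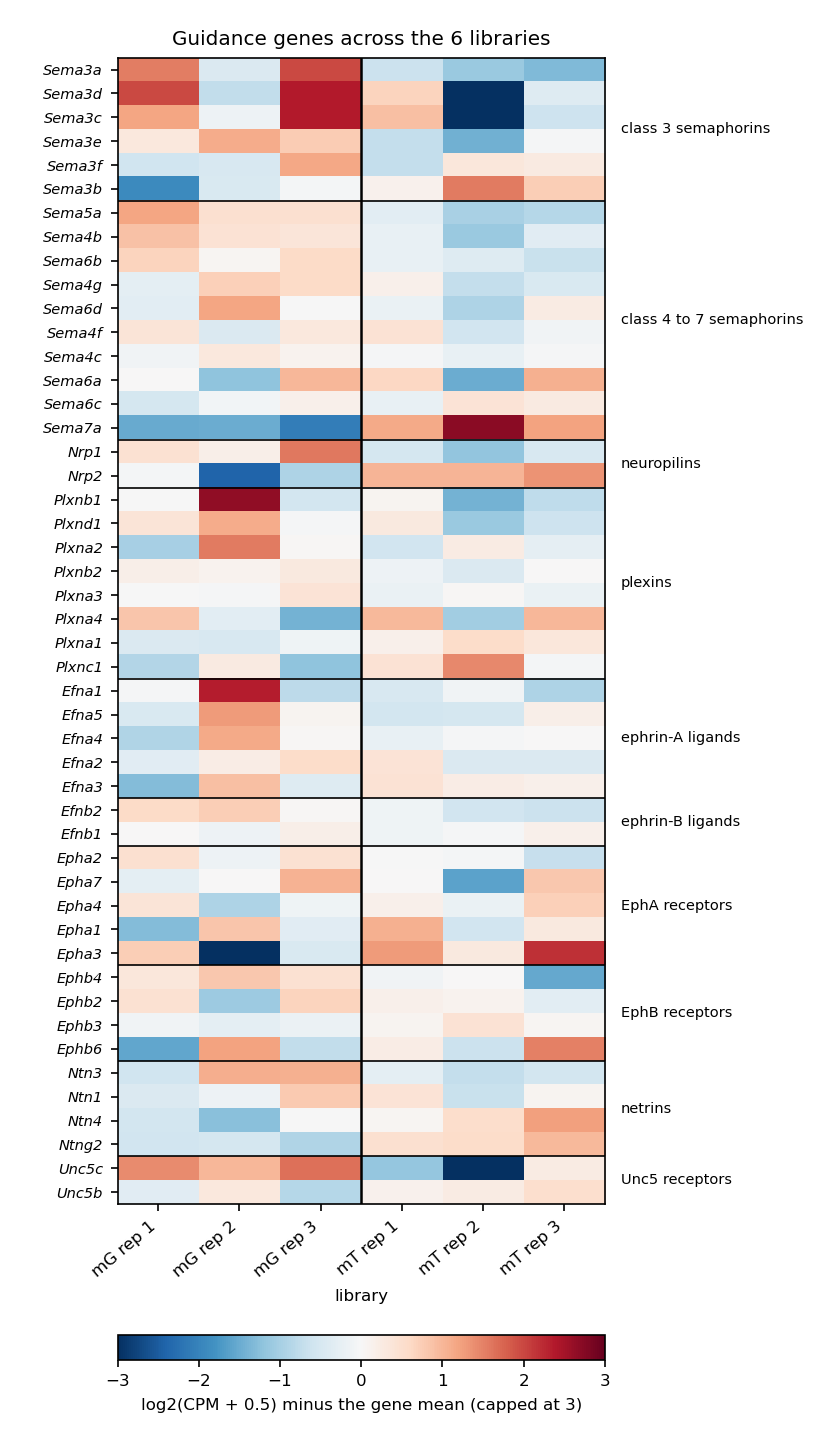
Level of each tested guidance gene in the 6 libraries as log2 CPM relative to the gene's own mean, mG columns left of mT, with colours capped at 3 on either side. Red is above and blue below the gene's mean; Sema7a and Nrp2 are blue or near 0 in mG and red in mT, and Plxnb1 and Efna1 are red in mG replicate 2.

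Netrins gave 0 calls among 4 tested by edgeR's quasi-likelihood test, with 1 higher and 2 lower in mG at an unadjusted p under 0.05, 1 by the likelihood-ratio test and 0 by limma-voom; DESeq2 called 2, Ntng2 and the Ntn5 gene. Ntn4, a netrin of basement membranes that binds laminin, had 110, 68.0 and 161 CPM in mG, against 168, 232 and 379 CPM in mT. The mG libraries all lay below the mT libraries, the highest mG value being close to the lowest mT value (log2 fold change -1.20 ± 0.41 SE, adjusted p = 0.257). Ntng2, which encodes the lipid-anchored netrin G2, had 4.47, 4.64 and 3.42 CPM in mG, against 9.73, 10.2 and 14 CPM in mT. The groups were well apart with a small spread in each (log2 fold change -1.43 ± 0.27 SE, adjusted p = 0.077), and DESeq2 and the likelihood-ratio test called it. The authors' deposited table gave Ntng2 a false discovery rate of 0.0097. Exons of Ntng2 overlap 6530402F18Rik on the same strand.

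Ntn3 had 1.96, 7.36 and 7.25 CPM in mG and 2.53, 1.74 and 2.04 CPM in mT, overlapping through mG replicate 1 (log2 fold change 1.39 ± 0.54 SE, adjusted p = 0.314). Its exons overlap other genes on both strands. Ntn1, the best-known secreted netrin, had 9, 11.1 and 21.6 CPM in mG and 16.7, 7.60 and 13.2 CPM in mT (log2 fold change 0.15 ± 0.43 SE, adjusted p = 0.93). Ntn5 did not pass the filter on low counts: it had 0 counts in each mG library, against 11, 30 and 4 counts in mT. Set against 3 counts for the whole group, it was at least 15.9-fold lower in mG. This bound covers counting error only, not the spread between libraries, and mT replicate 2 held 69.3% of the summed CPM. With no filter edgeR gave adjusted p = 0.173, DESeq2 gave 0.00384, and the authors' deposited table gave a false discovery rate of 5.58e-06. Ntn5 also overlaps Sec1 on the opposite strand.

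The Unc5 receptors, which carry repulsive netrin signals, gave 0 calls among 2 tested by edgeR's quasi-likelihood test, 1 at an unadjusted p under 0.05, 1 by DESeq2, and 0 by the likelihood-ratio test and limma-voom. Unc5c had 35.6, 26.3 and 41.7 CPM in mG, against 5.47, 1.02 and 15.3 CPM in mT. Every mG library was above every mT library, while the mT libraries spread widely (log2 fold change 2.25 ± 0.82 SE, adjusted p = 0.285); exons of the gene overlap Gm15688 on the opposite strand. Leaving out 1 library gave Unc5c log2 fold changes between 1.73 (without mT replicate 2) and 3.40 (without mT replicate 3). DESeq2 gave Unc5c an adjusted p of 0.0443 and the likelihood-ratio test 0.0942. Its false discovery rate in the authors' deposited table was 0.0434. Unc5b, a netrin receptor known from blood vessels, had 192, 301 and 134 CPM in mG and 263, 285 and 342 CPM in mT, and the ranges overlapped (log2 fold change -0.50 ± 0.30 SE, adjusted p = 0.519). Unc5c reads relative to Unc5b reads were 0.185, 0.0876 and 0.312 in mG, against 0.0208, 0.00358 and 0.0448 in mT, a ratio chosen after the values were seen.

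Per length, by the authors' RPKM averaged over the 6 libraries, the 6 most abundant guidance genes were Ntn4, Plxnb2, Efnb1, Plxna1, Unc5b and Sema3c. Ntn4 averaged 25.5 RPKM in mG and 58.7 RPKM in mT. Plxnb2 averaged 30.4 RPKM in mG and 23.5 RPKM in mT, and Sema3c 21.8 RPKM in mG and 6.69 RPKM in mT. These 6 genes also held the first 6 ranks per kilobase of merged exons, in another order. A level of at least 5 RPKM in either population was reached by 14 of the 58 genes.

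Summed by family as RPKM, 3 families did not overlap between populations. The netrins summed to 25.8, 17.1 and 38.8 RPKM in mG, against 40.2, 54.0 and 88.3 RPKM in mT, most of it Ntn4. The class 4 to 7 semaphorins summed to 4.42, 4.32 and 3.81 RPKM in mG, against 8.91, 21.2 and 9.20 RPKM in mT, of which Sema7a averaged 0.824 RPKM in mG and 11 RPKM in mT. On the CPM scale the same class summed to 64.9, 76.7 and 64.9 in mG and to 73.6, 111 and 78.2 in mT, so the groups overlapped there, and the log2 ratio was -0.33 by CPM beside -1.53 by RPKM. The ephrin-B ligands summed to 32.7, 31.3 and 32.9 RPKM in mG, against 27.0, 27.1 and 30.2 RPKM in mT. Plexins, at 51.8, 63.6 and 58.4 RPKM in mG and 53.9, 56.0 and 58.9 RPKM in mT, were close between populations. Class 3 semaphorins spread from 18.9 to 77.1 RPKM in mG and from 11.3 to 24.7 RPKM in mT. The neuropilin sum was 14.9, 10.3 and 27.3 RPKM in mG and 12.5, 10.4 and 14.4 RPKM in mT; its log2 ratio of 0.39 became -0.47 on the CPM scale and -0.32 per kilobase of merged exons, so its direction depended on the length used.

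**Figure D4:**
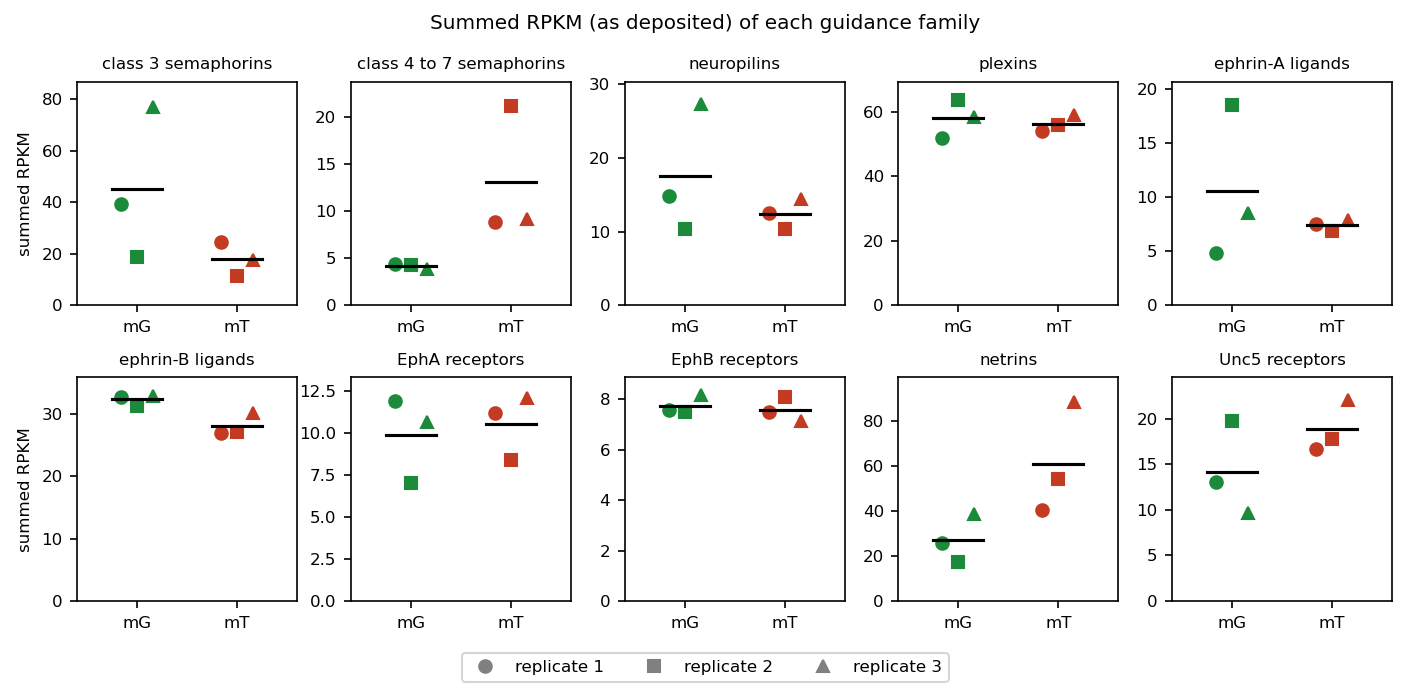
Summed RPKM, as deposited, of each guidance family in each library, mG left and mT right, with the mean as a line and a symbol for each replicate number. Netrins and class 4 to 7 semaphorins lie lower in mG, ephrin-B ligands lie higher in mG, and the other 7 families overlap.

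Genes that act with these families were examined as a list of 56, of which 51 were in the table and 39 were tested. Flrt3, a ligand of Unc5 receptors, was the 1 of 39 that passed, beside 0.914% of all genes. At an unadjusted p under 0.05 there were 13 of 39, of which 7 were higher in mG. The share over all genes was 14.6% (7.7% higher and 6.88% lower). Flrt3 had 0.873, 2.44 and 1.41 CPM in mG, against 9.68, 9.94 and 11.6 CPM in mT, and fell without overlap (log2 fold change -2.71, adjusted p = 0.05, just under the threshold before rounding). With the replicate number as a block its adjusted p was 0.0665, and with upper-quartile scaling it was 0.0558. The adjusted p of Flrt3 was 0.0388 by limma-voom, 6.71e-09 by DESeq2 and 5.04e-06 by the likelihood-ratio test. Leaving out mG replicate 2 kept the call of Flrt3 (0.0195), while leaving out any other library ended it, with adjusted p between 0.0733 (without mG replicate 1) and 0.222 (without mT replicate 3). Vav2, an exchange factor downstream of Eph receptors, had 105, 107 and 110 CPM in mG, against 48.7, 25.9 and 40.9 CPM in mT (adjusted p = 0.0537). Farp2, an exchange factor in semaphorin 3A signalling, had 25.6, 27.0 and 27.2 CPM in mG, against 46.7, 59.7 and 44.5 CPM in mT (adjusted p = 0.0595). Dpysl4, of the collapsin response mediator family, had 0.818, 0.234 and 0.530 CPM in mG, against 3.65, 2.40 and 3.18 CPM in mT (adjusted p = 0.101). All 3 lay apart between populations without passing. The netrin receptor genes Neo1 and Dcc were at 137 ± 24.2 CPM in mG and 142 ± 23.8 CPM in mT for Neo1 (SD, n = 3 each), and at 0.0393 CPM in mG and 0.0369 CPM in mT for Dcc.

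The 10 guidance genes that were not tested were Epha10, Epha5, Unc5a, Sema3g, Sema4a, Sema4d, Sema5b, Efnb3, Ntn5 and Plxnb3, and no library held more than 30 counts of any of them. Sema4d, the ligand of plexin B1, had 2, 1 and 3 counts in mG and 4, 3 and 3 counts in mT. Unc5a had 2, 4 and 5 counts in mG and 19, 2 and 16 counts in mT.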

How the data were processed

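RNA sequencing counts of 3 mG and 3 mT libraries were taken from 1 deposited table, which holds whole-number counts per gene, RPKM, values normalized by trimmed mean of M values (TMM), and the authors' own comparison. Per the submitters' processing notes the tools were STAR, edgeR 4.0, Trimmomatic 0.38, cutadapt 5.0 and FastQC 0.11.9. For the counter, genome build and annotation, nothing was given in the sources used here. The counts and the authors' RPKM were used for results. The deposited TMM signal, the log2 values, the likelihood-ratio score and the −log10 values of the authors were checked for their units only, and the authors' deposited p-values, as false discovery rates, are quoted where named. The authors' comparison is labelled with RUV and upper-quartile normalization, which differs from the TMM scaling used for the main test here. RPKM divides by a deposited length that equals the summed length of all GENCODE M21 transcripts of a gene within 1% for 57 of 58 guidance genes, a median of 1.91 times the merged exons, so it understates genes with many transcripts.

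Rows without a gene name (36, 0.013 to 0.0352% of counts) were left out. Counts were tested with edgeR 4.0.16 (R 4.3.3), quasi-likelihood F-test, TMM factors of 0.9259 to 1.134, filterByExpr at a minimum count of 10, Benjamini-Hochberg adjustment over 13560 genes and a threshold of 0.05. Tests are 2-sided, SE is the log2 fold change over the square root of F, and CPM are TMM-scaled. Fold changes are mG over mT. A floor of 3 counts is 0.154 to 0.178 CPM; floors cover counting error only. Scripts were tested on simulated data.

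Replicate numbers were checked for pairing: deviations of same-numbered libraries correlated at 0.24, 0.18 and 0.3, and of others at -0.18 to -0.054, so a fit with the number as a block was added. Deviations were taken from the population mean, so positive values for same-numbered pairs force the others to be negative in sum. The negative values are therefore no separate evidence, and the pairing rests on the same-numbered correlations alone. Alternatives were other normalizations and filters, DESeq2 1.42.0, limma-voom 3.58.1, the likelihood-ratio test, the block and leaving out libraries. Guidance genes and lists were chosen with earlier results of these data known. Named genes are those called, up to 3 per family with the smallest p and up to 2 with the highest RPKM, and up to 4 genes of the added list by adjusted p; any other gene given with its values was chosen after those were seen. Promoters are from RefSeq (GRCm38.p6), and GENCODE M21 gave merged exons and overlaps, with no coordinates of the authors used. No protein sequences were used.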

Additional observations from a re-analysis of the deposited data

How the results depend on the processing

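With the main settings 1 guidance gene and 124 of all genes were called. DESeq2 called 12 guidance genes (7 higher, 5 lower in mG) and 960 of all genes, the likelihood-ratio test 8 (5 higher, 3 lower) and 766, and limma-voom 0 and 92. Leaving out 1 library gave 0 to 2 guidance genes (0 to 1 higher, 0 to 1 lower) and 20 to 362 of all genes: 28, 25 and 20 without mT replicate 1, 2 and 3, and 71, 362 and 32 without mG replicate 1, 2 and 3. Leaving out both replicate 2 libraries, an alternative chosen after seeing the data, gave 0 guidance genes, 46 of all genes and a median log2 fold change of 0.03. With the replicate block 1 guidance gene and 108 of all genes were called; the block ended the call of Flrt3, leaving 0 of the added list, and changed no other call named. That list had 1 call in the main fit, 0 with upper-quartile scaling, 2 with no filter, 6 by DESeq2, 5 by the likelihood-ratio test, 0 to 2 on leaving out 1 library and 0 without both replicate 2 libraries. Sema7a stayed negative throughout: -3.53 by limma-voom (adjusted p = 0.109), -3.14 without both replicate 2 libraries and -3.99 to -3.01 on leaving out 1 library. Without both replicate 2 libraries the log2 fold changes of Efna4 (-0.30), Efna5 (-0.03) and Plxnb1 (-0.01) changed sign. On leaving out 1 library the range crossed 0 for Ephb2 (-0.10 to 0.58), Ephb6 (-2.05 to 0.30), Sema3f (-0.59 to 0.51), Efna4 (-0.32 to 0.84), Efnb1 (-0.06 to 0.11), Ntn1 (-0.32 to 0.42), Plxna2 (-0.25 to 1.16), Efna3 (-1.24 to 0.13), Epha1 (-1.36 to 0.08), Epha7 (-0.18 to 1.03), Sema4f (-0.14 to 1.07) and Sema6a (-1.08 to 0.30). Without changing sign, wide ranges were seen for Efna1 (0.13 to 2.52), Plxnb1 (0.30 to 2.56), Sema3d (1.48 to 3.01) and Epha3 (-2.90 to -1.18). Summed family levels moved with the length used. The log2 ratio of class 4 to 7 semaphorins was -1.53 by RPKM, -0.33 by CPM and -0.80 per merged exon length. For neuropilins it was 0.39, -0.47 and -0.32, for EphB receptors 0.03, 0.16 and 0.22, and for ephrin-B ligands 0.20 by RPKM and 0.32 by CPM. The cause of these shifts was not tested, except that each leave-out has fewer libraries. The number of libraries, 3 per population, and the depth of low genes both limit precision.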
